A study of Mus musculus with 2 samples.

Results

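Old vascular smooth muscle cells (VSMCs) labelled siPiezo1 were compared with old VSMCs not so labelled, gene by gene, in a single droplet library where both carried their own antibody hashtag. The cells were primary aortic VSMCs of C57BL/6 mice, bought commercially and used within a few passages, and the old donors were 58 to 78 weeks of age. The cells labelled siPiezo1 were to have received a pool of small interfering RNAs against Piezo1 at 20 nM for 48 h with a lipid reagent. The study's text gives a somewhat higher dose in another passage, so the dose used for these cells is uncertain. The labels also list a non-targeting pool. The study describes the old cells it compared by staining as treated with that pool, whereas for the old cells of this library no source used here says whether they received it. Young cells of 12 weeks (tag 1) and young cells given angiotensin II for 48 h (tag 3) were hashed and mixed into the same library, and serve below only as a reference for level. No file or text pairs a hashtag with a culture in words. The pairing used here takes the numbers drawn beside the groups in the study's overview schematic as tag numbers, which makes tag 2 the old cells and tag 4 the old cells labelled siPiezo1. Each side was 1 culture as far as the labels go, so there is no replicate, no test and no p-value, and every interval given below is a 95% interval for counting error alone.

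Barcodes with 2218 or more gene UMIs (unique molecular identifiers, each standing for 1 captured RNA molecule) and 200 or more genes were counted as cells, and a cell was given a tag when that hashtag alone exceeded its cutoff of 36, 52, 61 or 41 UMIs for tags 1 to 4. Of 13045 cells, 1529 (11.7%) had tag 4 and 497 (3.81%) had tag 2, while 5307 (40.7%) had no tag. No barcode was listed more than once. The cells of tag 4 held 16106402 UMIs with a median of 9792 per cell, and those of tag 2 held 5577355 with a median of 10663. Values are the UMIs of a gene summed over the cells of a tag, scaled to 1000000 UMIs of those cells (CPM). In such sums, fewer cells that express a gene and less of its RNA in each cell cannot be told apart.

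The tags themselves were weakly separated. Cells of tag 2 had a median of 76 UMIs of their own hashtag and 31 of the next most frequent, and cells of tag 4 had 67 and 31. Within 1.5 times the cutoff lay 53.1% of the cells of tag 2 and 43.7% of those of tag 4. Transcripts linked to sex were mixed on each side: 63.0% of the cells of tag 2 and 66.8% of those of tag 4 had Xist (the non-coding RNA of the inactive X chromosome) and none of 4 Y-linked genes, whereas 19.5% and 13.8% had Y-linked UMIs and no Xist. In tags 1 and 3 the share with Y-linked UMIs alone was 54.1% and 55.5%, and the share with Xist alone was 4.90% and 6.27%. For this reason the leading results are also given within Xist cells (313 in tag 2 and 1021 in tag 4) and within Y-linked cells (97 and 211). Whether the Y-linked cells of tags 2 and 4 are old cells or young cells with a wrong tag was not tested. Cells called doublets made up 21.7% of tag 2 and 19.9% of tag 4, and the median share of mitochondrial UMIs was 1.84% and 1.86%.

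Piezo1 is a channel opened by membrane tension that lets calcium into the cell, and in VSMCs calcium entry feeds the actomyosin machinery. VSMCs are not fixed in state: contractile cells are rich in smooth muscle actin and its partners, many of them driven through CArG boxes by serum response factor, while modulated cells in culture lose these proteins, divide, and make matrix, proteases and inflammatory mediators. A small interfering RNA guides the cleavage of its target mRNA, so the target gene is the usual check of the label.

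Piezo1 itself did not separate the sides. It was at 89.6 CPM in tag 2 and 86.9 CPM in tag 4, a ratio of 0.969 (interval 0.874 to 1.08), and at 71.6 and 108 CPM in tags 1 and 3. After every cell was thinned to 5000 UMIs, 33.8% of the cells of tag 2 and 32.8% of those of tag 4 had a Piezo1 UMI. Over 12 other choices of cells or scaling, the ratio ran from 0.820 in the Y-linked cells to 1.04 in cells with a UMI of 5 dividing-cell genes. The study, in contrast, reports less Piezo1 in siPiezo1-treated old cells than in old cells, in its single-cell data and by qRT-PCR. It also reports less Piezo1 protein by staining in such cells, and it measured Piezo1 after another siRNA by qRT-PCR and staining. A drop of Piezo1 RNA was not seen between tags 2 and 4, and the reason was not tested. No source used here gives the positions in Piezo1 that the siRNA pool targets. The RNA of the target gene thus does not bear out the label of tag 4. Every direction below is one between the cells labelled siPiezo1 and the old cells.

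Across the 8413 genes with a mean of at least 10 CPM in the pair, 130 were at least 1.5-fold higher in tag 4 (1.55% of the genes) and 70 at least 1.5-fold lower (0.832%), which makes 2.38% in either direction. The median log2 ratio over all 8413 genes was 0.02, and 4537 of them had a ratio above 1 and 3876 a ratio below 1. The genes nearest the limit were Ssbp2 at a ratio of 1.501 and Cpne8 at 1.499 on the upper side, and Cryab at 0.666 and Prg2 at 0.667 on the lower side. Among the 130 higher genes, tag 4 had the highest level of the 4 tags in 93, and the cells without a tag lay between tags 2 and 4 in 100. Among the 70 lower genes, tag 4 had the lowest level of the 4 tags in 48, while tag 2 had the highest in 26. The genes were chosen by their gap between tags 2 and 4, which favours these orders. The same shares over all 8413 genes were not counted, so these counts are not a trait of tag 4.

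**Figure D1:**
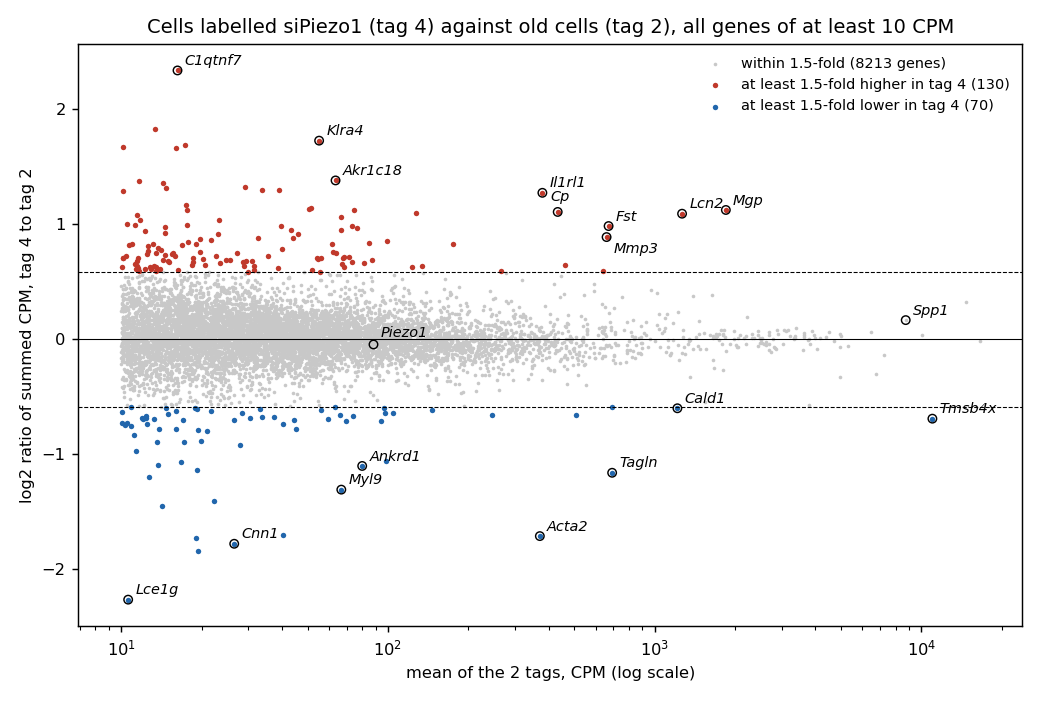
Each point is 1 of 8413 genes, with the mean of tags 2 and 4 in CPM on a logarithmic x axis and the log2 ratio of tag 4 to tag 2 on the y axis; dashed lines mark 1.5-fold. Acta2, Tagln and Myl9 lie far below the cloud and Mgp, Lcn2, Cp and Il1rl1 above it, while Piezo1 lies near 0.

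Sequence before the start site was read for genes on both sides, to show where a reader would find the element known for contractile genes and a motif of the C/EBP family, which acts in the acute phase. The table of RefSeq promoters (GRCm38.p6) matched 94 of the 130 higher and 54 of the 70 lower genes by symbol, and the 250 bases before each start were searched on both strands for the CArG box, TTGCNNAA, TTCCNGGAA and the NF-kB site, motifs chosen with the values known. Capitals mark TTGCNNAA in Lcn2, Il1rl1 and Mmp3, and in Myl9 they mark a match to the NF-kB site followed by the CArG box.
Myl9: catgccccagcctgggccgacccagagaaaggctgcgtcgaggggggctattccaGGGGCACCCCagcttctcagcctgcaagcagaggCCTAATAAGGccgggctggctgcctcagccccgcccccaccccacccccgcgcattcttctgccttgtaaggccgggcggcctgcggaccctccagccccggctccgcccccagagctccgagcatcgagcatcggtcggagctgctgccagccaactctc
Lcn2: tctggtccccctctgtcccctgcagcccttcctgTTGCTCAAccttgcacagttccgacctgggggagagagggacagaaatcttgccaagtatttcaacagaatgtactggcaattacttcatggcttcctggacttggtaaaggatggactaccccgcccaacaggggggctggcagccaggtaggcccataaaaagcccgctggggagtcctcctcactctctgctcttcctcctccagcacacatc
Il1rl1: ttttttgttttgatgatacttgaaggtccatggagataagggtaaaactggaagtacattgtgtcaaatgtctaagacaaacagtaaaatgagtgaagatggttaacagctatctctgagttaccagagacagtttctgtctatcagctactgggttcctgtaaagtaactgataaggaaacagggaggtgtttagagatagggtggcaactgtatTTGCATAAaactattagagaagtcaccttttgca
Mmp3: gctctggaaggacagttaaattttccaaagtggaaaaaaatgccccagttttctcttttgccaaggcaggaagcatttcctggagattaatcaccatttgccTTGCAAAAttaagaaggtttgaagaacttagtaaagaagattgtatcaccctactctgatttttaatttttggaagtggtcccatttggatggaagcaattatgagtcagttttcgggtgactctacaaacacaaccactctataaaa
These are chr2:156775214-156775463 (plus strand) for Myl9, chr2:32387740-32387989 (minus strand) for Lcn2, chr1:40429320-40429569 (plus strand) for Il1rl1 and chr9:7445572-7445821 (plus strand) for Mmp3. The CArG box of Myl9 begins 161 bases before the start, and TTGCNNAA begins 216, 34 and 148 bases before it in Lcn2, Il1rl1 and Mmp3. The CArG box was present in 1 of the 54 lower genes, Myl9 (1.85%), and in 1.62% of all 27025 genes of the table, and Acta2, whose promoter is in the table, held no exact match. TTGCNNAA was present in 20 of the 94 higher genes (21.3%), 5 of the 54 lower genes (9.26%) and 10.8% of all genes. Cp, C3, C1s1, Steap4 and Pdgfra were also among the 20. TTCCNGGAA was in 2 of the higher (2.13%) and 0 of the lower genes, against 1.09% of all. The NF-kB site was in 7 of the higher (7.45%) and 3 of the lower genes (5.56%), against 4.46% of all. Both sets come from the genes that passed the filter of 10 CPM, of which 6750 were in the table. Among these 6750 the shares were 1.42% for the CArG box, 9.04% for TTGCNNAA, 1.13% for TTCCNGGAA and 5.39% for the NF-kB site. A match of letters is no evidence of binding, and no test was made of these shares.

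Among genes with a mean of at least 50 CPM, the 3 lowest ratios were those of the smooth muscle genes Acta2, Myl9 and Tagln. Acta2 (ENSMUSG00000035783), smooth muscle alpha-actin, was at 568 CPM (549 to 589) in tag 2 and 174 CPM (167 to 180) in tag 4, a ratio of 0.306 (0.290 to 0.322), with 378 and 294 CPM in tags 1 and 3. Tag 4 was therefore the lowest of the 4 tags for Acta2 and tag 2 the highest. Tagln, transgelin, which binds actin filaments, was at 957 CPM in tag 2 and 428 CPM in tag 4 (ratio 0.448, 0.432 to 0.464), and its level in tag 4 was close to the 415 CPM of tag 1. Myl9, the regulatory light chain of smooth muscle myosin and the gene whose CArG box is printed, was at 95.2 and 38.5 CPM (ratio 0.404, 0.359 to 0.455). Cnn1, calponin, had the lowest ratio of the list, at 41.1 CPM in tag 2 and 12.0 CPM in tag 4 (0.292, 0.240 to 0.355), although tag 3 was lower still at 6.96 CPM. The study proposes that siPiezo1 does not change the cytoskeleton of old cells, which it describes as disrupted by age. Besides RNA, it draws on F-actin staining, cell area and traction force, measures unlike the summed RNA given here. After another Piezo1 siRNA it also measured ACTA2 and TAGLN in old cells by qRT-PCR. The study further states that the transcriptomic signature of siPiezo1-treated old cells was not altered. By qRT-PCR it reports less RNA of smooth muscle alpha-actin and transgelin in old than in young cells. It also describes its young single cells as rich in both and in the myosin light chain. Between the tags taken as old and young, the order here was the reverse. Acta2 was at 568 CPM in tag 2 and 378 CPM in tag 1. Tagln was at 957 and 415 CPM, and Myl9 at 95.2 and 57.3 CPM. These genes thus do not bear out the names of tags 1 and 2, and the reason was not tested.

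Of the 20 contractile genes listed, 13 passed the filter of 10 CPM, and 6 of these were at least 1.5-fold lower in tag 4 and 0 higher, with a median log2 ratio of -0.44 against 0.02 for all genes. Over all 8413 genes, 0.832% were lower by that much and 1.55% higher. The remaining members of the list past the limit were Lmod1, leiomodin, which nucleates actin filaments (13.6 and 8.07 CPM), and Cald1, caldesmon (1466 and 967 CPM). Sorbs2, Tpm2, Tpm1, Myl6 and Flna had ratios of 0.736, 0.781, 0.831, 0.881 and 0.922, and Smtn (1.02) and Csrp1 (1.12) were above 1. Of the 7 members under the filter, Myh11, the smooth muscle myosin heavy chain, was at 7.89 CPM in tag 2 and 3.60 CPM in tag 4, and Mylk, the kinase of the myosin light chain, at 12.2 and 4.10 CPM. Desmin (Des) and Myocd, the coactivator of serum response factor, were under 4 CPM on both sides. The defining smooth muscle heavy chain was thus scarce in both cultures, beside 8229 and 9233 CPM of Spp1, osteopontin, a gene of modulated VSMCs.

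The genes of the non-muscle cytoskeleton leaned the same way by less. All 18 passed the filter, 17 had a ratio below 1, 1 passed the 1.5-fold limit, and the median log2 ratio was -0.19. Of all 8413 genes, 3876 had a ratio below 1 and 0.832% were at least 1.5-fold lower. The summed list was at 30870 CPM in tag 2 and 22920 CPM in tag 4, with 22455 and 30002 CPM in tags 1 and 3. Tmsb4x, thymosin beta 4, which holds actin monomers, was the most abundant at 13572 CPM in tag 2 and 8412 CPM in tag 4 (ratio 0.620, 0.614 to 0.625). Tags 1 and 3 were at 7601 and 8973 CPM, so tag 4 lay between them and tag 2 stood apart. Dstn, which severs actin filaments, had a ratio of 0.684, and the cytoplasmic actins Actb and Actg1 had ratios of 0.812 and 0.840. Actn1, alpha-actinin of focal adhesions and stress fibres, was at 491 and 419 CPM. Myh10, a non-muscle myosin heavy chain, was the member above 1, at 1.09. Tmsb4x is linked to the X chromosome, and its ratio was 0.615 within the Xist cells and 0.559 within the Y-linked cells.

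Targets of YAP and TEAD, transcription regulators that respond to cell tension, included 3 of 11 members at least 1.5-fold lower in tag 4 and 0 higher, with a median log2 ratio of -0.09. Over all 8413 genes, 0.832% were at least 1.5-fold lower and 1.55% higher. The 3 lower members were Ankrd1, an ankyrin-repeat protein (109 and 50.9 CPM, ratio 0.466), F3, tissue factor (86.4 and 52.7 CPM, 0.610), and Ccn2, a matricellular protein (73.7 and 45.7 CPM, 0.620). The other 8 lay between 0.882 for Thbs1 and 1.01 for Lats2. Tag 3 had the highest level of the 4 tags for Ankrd1 (278 CPM) and Ccn2 (365 CPM), and tag 1 for F3 (165 CPM).

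At the other end stood genes of the acute phase and of complement, proteins that many cells secrete under inflammatory cytokines. Of 13 listed, 10 passed the filter, 6 of them were at least 1.5-fold higher in tag 4 and 0 lower, and the median log2 ratio was 0.83. The shares over all 8413 genes were 1.55% higher and 0.832% lower. Lcn2, lipocalin 2, which binds iron-carrying siderophores, was at 810 CPM (786 to 833) in tag 2 and 1724 CPM (1703 to 1744) in tag 4, a ratio of 2.13 (2.06 to 2.20), with 701 and 406 CPM in tags 1 and 3. Cp, ceruloplasmin, a copper-carrying ferroxidase, was at 275 and 591 CPM (2.15, 2.04 to 2.27). Tag 4 was the highest of the 4 tags for Lcn2 and Cp. Serpina3n, a serine protease inhibitor, was at 31.7 and 69.7 CPM, but tag 1 was far above both at 259 CPM. Its relative Serpina3g had a ratio of 1.96, with 58.4 and 11.2 CPM in tags 1 and 3, where Serpina3n was at 259 and 107 CPM. Whether these related genes share reads was not tested. The complement genes C1s1 (11.1 and 24.2 CPM) and C3 (66.9 and 108 CPM) completed the 6. For C1s1, tags 1 and 3 were both above tag 4, at 42.3 and 40.7 CPM, and for C3 tag 1 was, at 116 CPM. Saa3, a serum amyloid A protein, was at 823 and 1107 CPM, a ratio of 1.34 that stayed within the limit, and Clu, clusterin, was the member below 1 at 0.932.

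The secreted inflammatory genes did not lean to 1 side. Among 26 secreted inflammatory genes, 21 passed the filter, 3 were at least 1.5-fold higher in tag 4 and 1 lower, and the median log2 ratio was 0.04. Over all 8413 genes, 1.55% were higher by that much and 0.832% lower. Il6 was at 102 and 95.4 CPM, the chemokine Ccl2 at 3564 and 3710 CPM, and Ptgs2, the inducible cyclooxygenase, at 797 and 690 CPM (0.865, 0.836 to 0.896). The 3 higher members were Il1rl1, Hgf (hepatocyte growth factor, 32.3 and 71.0 CPM) and Tnfaip6 (a hyaluronan-binding protein, 10.4 and 17.8 CPM), and the lower one was the chemokine Cxcl2 (32.3 and 12.2 CPM), whose ratio turned to 3.84 within the Y-linked cells. A UMI of Cxcl2 was found in only 5.63% of the cells of tag 2 and 6.15% of those of tag 4. In the interferon response, 1 of 11 was past the limit: Ifit1, at 17.0 and 28.1 CPM, beside 789 CPM in tag 1, and its ratio was 0.988 when tags were named by the highest centred log ratio. Ifit1 stayed past 1.5-fold in only 4 of 12 other choices of cells or scaling, and 12.3% and 13.7% of the cells had a UMI of it.

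**Figure D2:**
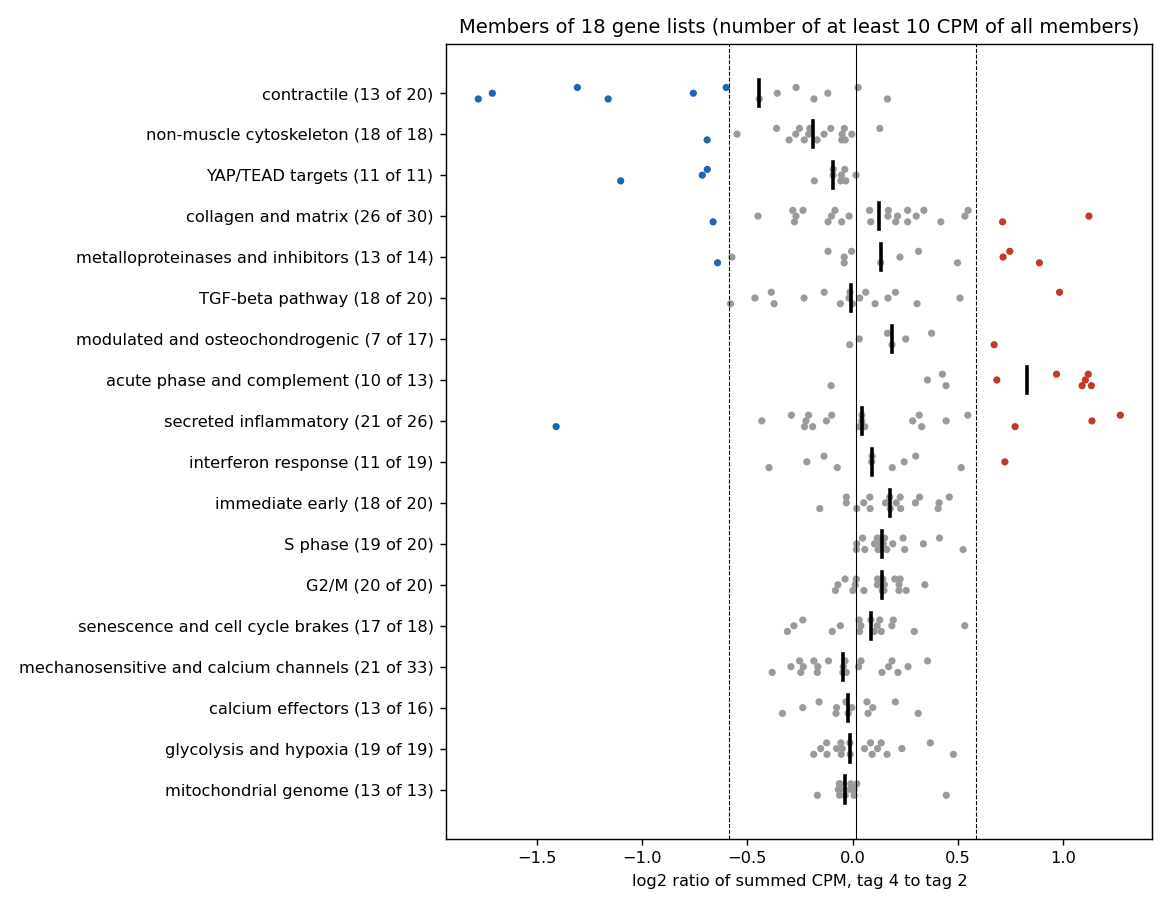
Each point is a gene of 1 of 18 lists that passed the filter of 10 CPM, placed by its log2 ratio of tag 4 to tag 2; black bars are medians, dashed lines mark 1.5-fold and the thin line is the median of all genes. The contractile list reaches furthest to the left with 6 members past the limit, and the acute phase list lies mostly to the right with 6 of 10 past it.

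Il1rl1, which encodes ST2, the receptor of interleukin 33, was at 222 CPM (210 to 235) in tag 2 and 536 CPM (525 to 548) in tag 4, a ratio of 2.41 (2.27 to 2.56), with 101 and 169 CPM in tags 1 and 3. Within the Xist cells it was at 228 CPM in tag 2 and 652 CPM in tag 4, and within the Y-linked cells at 194 and 163 CPM. The higher level in tag 4 was therefore seen among the Xist cells and not among the Y-linked cells. Mmp3, the metalloproteinase stromelysin 1, followed the same pattern. It was at 463 CPM in tag 2 and 857 CPM in tag 4 over all cells (ratio 1.85, 1.77 to 1.93), at 475 and 997 CPM in the Xist cells, and at 396 and 384 CPM in the Y-linked cells. Fst, follistatin, which binds activins, was at 451 and 892 CPM over all cells, at 468 and 1070 CPM in the Xist cells, and at 404 and 446 CPM in the Y-linked cells. Of the 15 genes with the highest ratio, Klra4 and Lmo7 were likewise not above 1 in the Y-linked cells, with ratios of 0.715 and 0.661.

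Acta2 and Lcn2 had the same direction in both kinds of cells. Acta2 was at 520 and 174 CPM within the Xist cells and at 696 and 134 CPM within the Y-linked cells, so that the gap was wider in the latter. Lcn2 was at 915 and 1813 CPM and at 489 and 1671 CPM. The summed contractile list was at 7160 CPM in tag 2 and 5203 CPM in tag 4 in the Xist cells, and at 8864 and 5134 CPM in the Y-linked cells. The summed acute phase list was at 2563 and 4099 CPM in the Xist cells and at 1677 and 4258 CPM in the Y-linked cells. Whether the share of Xist cells has a part in the ratios over all cells was not tested beyond these values.

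**Figure D3:**
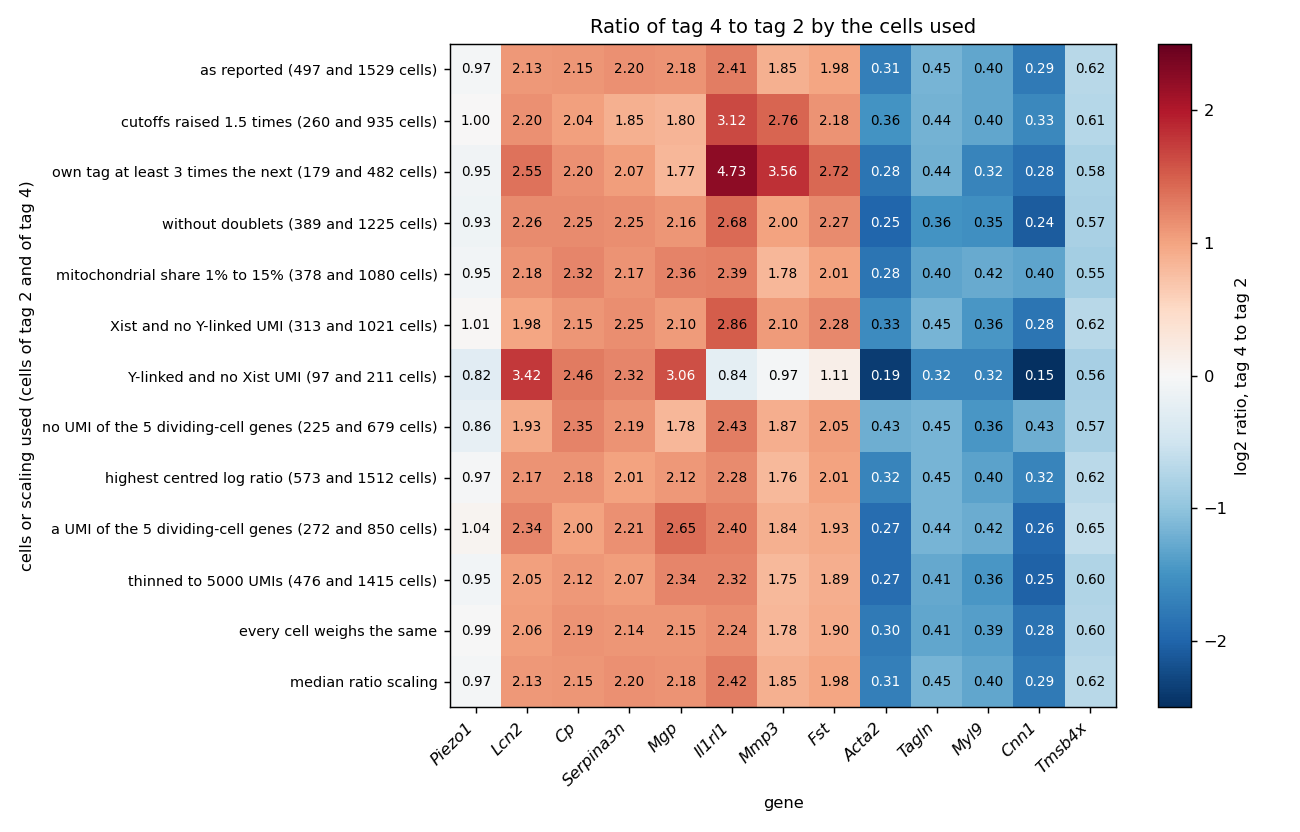
Rows are the choice of cells or scaling, with the cells of tag 2 and of tag 4 in brackets, columns are genes, and each cell gives the ratio of tag 4 to tag 2, coloured by its log2. Il1rl1, Mmp3 and Fst are at 0.844, 0.970 and 1.11 in the Y-linked row and above 1.5 in every other row, whereas Acta2, Tagln, Myl9 and Cnn1 are below 0.5 in every row.

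The 15 genes of at least 50 CPM with the highest ratios were Klra4, Akr1c18, Il1rl1, Hgf, Serpina3n, Lmo7, Mgp, Cp, Pappa, Lcn2, Pcdh17, Gda, Fst, Serpina3g and Steap4, with ratios from 3.31 to 1.93. Klra4, of a family of natural killer receptor genes with near-identical copies, was at 25.6 and 84.7 CPM, and the split of reads within that family is uncertain. Akr1c18, a hydroxysteroid dehydrogenase, was at 35.3 and 91.9 CPM. Mgp, matrix Gla protein, an inhibitor of calcification, was the most abundant of the 15 at 1163 CPM (1135 to 1192) in tag 2 and 2533 CPM (2509 to 2558) in tag 4. Pappa, a protease of insulin-like growth factor binding proteins, was at 81.2 and 173 CPM, and Steap4, a metalloreductase of the cell membrane, at 45.4 and 87.4 CPM. Over 12 other choices of cells or scaling, 10 of the 15 stayed past 1.5-fold in all, and 12 stayed above 1 in all.

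The 15 lowest of at least 50 CPM had ratios from 0.306 to 0.641, and among them were Acta2, Myl9, Tagln, Ankrd1, Sema3e, F3, Gulp1, Tmsb4x, Ccn2, Kcnab1, Fbln2, Gm32647, Bcl2l15 and Timp3. Sema3e, a secreted guidance cue, was at 133 and 64.1 CPM. Kcnab1, a subunit of potassium channels, was at 90.9 and 57.2 CPM. Of these 15, 6 stayed past 1.5-fold in all 12 other choices and 14 stayed below 1. Gm32647 was the exception, at 299 and 190.2 CPM over all cells and a ratio of 1.52 within the Y-linked cells.

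**Figure D4:**
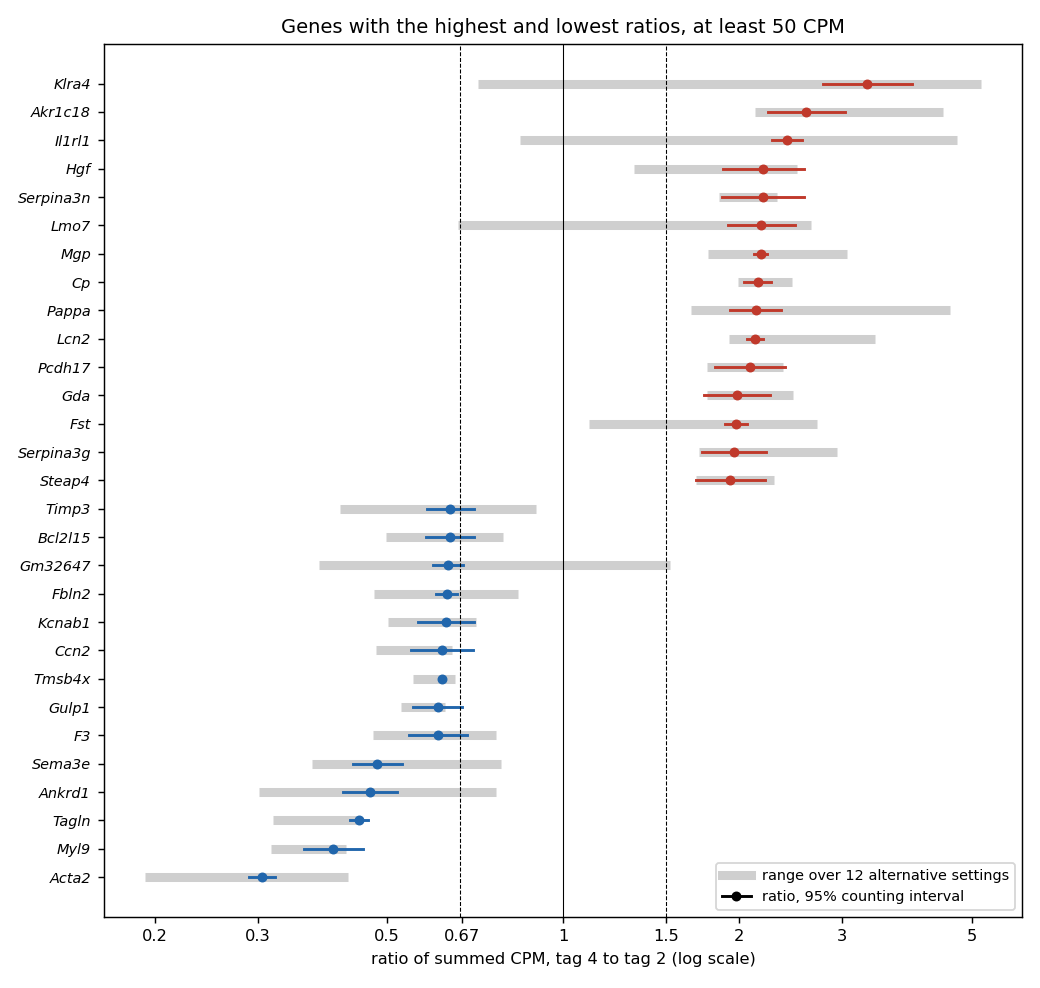
Points are the ratios of tag 4 to tag 2 of the 15 highest and 14 of the 15 lowest genes on a logarithmic axis, coloured bars are 95% intervals for counting error, and grey bars span 12 other choices of cells or scaling. The grey bars of Klra4, Il1rl1, Lmo7 and Gm32647 cross 1, and those of Acta2, Myl9, Tagln and Tmsb4x stay below 0.67.

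Matrix genes were found on both sides. Of 26 collagen and matrix genes that passed the filter, Mgp and Col3a1 (54.3 and 89.0 CPM) were at least 1.5-fold higher in tag 4 and Fbln2, fibulin 2, was lower (619 and 391.5 CPM), with a median log2 ratio of 0.13. Tag 1 was above tag 4 for Col3a1 (341 CPM) but not for Mgp (1553 CPM). The fibrillar collagens Col1a1 (219 and 263 CPM) and Col1a2 (363 and 531 CPM) had ratios above 1, while the basement membrane collagens Col4a1 and Col4a2 had ratios of 0.733 and 0.822. Among metalloproteinases and their inhibitors, 3 of 13 were higher and 1 lower. The shares over all 8413 genes were 1.55% higher and 0.832% lower. Mmp2, a gelatinase (47.9 and 80.3 CPM), and Adamts1, a protease of proteoglycans (51.6 and 84.7 CPM), joined Mmp3, and the lower one was Timp3, a tissue inhibitor (127 and 81.8 CPM). Tag 1 was above tag 4 for Adamts1 (97.9 CPM) but not for Mmp2 (67.9 CPM). In the TGF-beta pathway 1 of 18 was past the limit, Fst. Pdgfra, a receptor marking fibroblasts and their precursors, was at 31.0 and 57.2 CPM, while Dcn was at 506 and 676 CPM and Pi16, Dpt and Clec3b were under 10 CPM on both sides.

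Markers of endothelial, macrophage and glial cells were near 0. The 7 endothelial markers summed to 6.28 CPM in tag 2 and 5.15 CPM in tag 4, the 6 macrophage markers to 7.17 and 6.15 CPM, and the 3 glial markers to 0.538 and 0.807 CPM, and 0 of them passed the filter. The 6 epithelial markers summed to 34.6 and 18.2 CPM, with Krt5 and Krt8 at 0 on both sides, and the 5 pericyte markers to 51.3 and 55.8 CPM, mostly Pdgfrb (37.8 and 40.8 CPM). Of 3 adipocyte markers, Fabp4, a fatty acid binding protein, was at 148 and 193 CPM, whereas Adipoq was at 0 on both sides. None of these 3 lists, with 1, 2 and 1 tested members, nor the 4 tested sex-linked genes, held a tested member past 1.5-fold. Over all 8413 genes, 2.38% were past it in either direction. The free RNA of near-empty barcodes, by comparison, held 393 CPM of Acta2 and 813 CPM of Lcn2, levels between those of tags 2 and 4 for Acta2 and close to tag 2 for Lcn2. Its part in the levels of each tag was not tested.

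The lists tied to Piezo1 function and to division held no gene past the limit. Over all 8413 genes, 2.38% were past 1.5-fold in either direction, so 0 in lists of this size sets none of them apart. Of 33 mechanosensitive and calcium channels, 21 passed the filter, 0 were past 1.5-fold in either direction and the median log2 ratio was -0.04. Piezo2 was at 23.1 and 17.8 CPM (0.768, 0.621 to 0.953), Stim1, the calcium sensor of the endoplasmic reticulum, at 43.7 and 36.8 CPM, Orai1 at 35.3 and 31.1 CPM, and the L-type channel subunit Cacna1c at 171 and 198 CPM. Trpv4 and Trpc4 were under 1 CPM on both sides. Of all 8413 genes, 4537 had a ratio above 1. All 19 S phase genes that passed the filter had ratios above 1, and 17 of 20 G2/M genes did, with median log2 ratios of 0.14 and 0.14 and none past the limit. Within the Y-linked cells these medians were on the other side of 0, at -0.06 and -0.24, and in cells without a UMI of the dividing-cell genes the S phase median was just below 0. The share of thinned cells with a UMI of 5 dividing-cell genes was 45.4% (40.8 to 49.97) in tag 2 and 47.6% (44.9 to 50.2) in tag 4. Ccnd1, cyclin D1, was at 853 and 925 CPM, Ccnd2 at 916 and 938 CPM, Ets1 at 56.5 and 62.1 CPM, and Cd44 at 399 and 395 CPM. Cdkn2a, the p16 locus marking senescence, was at 318 and 362 CPM, and 0 of 17 genes of senescence and cell cycle brakes were past 1.5-fold.

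Of the modulated and osteochondrogenic genes, 1 of 7 tested members was past the limit (Ly6a, 56.5 and 90.03 CPM, against 1944 CPM in tag 1). Of the antioxidant and metal genes, 1 of 14 was (Mt2, metallothionein 2, at 361 and 563 CPM). For Mt2, tags 1 and 3 were both above tag 4, at 1237 and 1392 CPM. Immediate early genes, glycolysis and hypoxia, endoplasmic reticulum stress, cholesterol synthesis, calcium effectors, sensors of double-stranded RNA and the mitochondrial genome had 0 members past it. These lists had 9 to 19 tested members each. Over all 8413 genes, 2.38% were past 1.5-fold in either direction, so counts of 0 or 1 do not set these lists apart. Fos and Egr1, rapid response transcription factors, had ratios of 1.38 and 1.33, Gapdh 0.963 and mt-Co3 1.01. The argonaute Ago2, which carries out RNA interference, was at 90.4 and 102 CPM.

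In single cells the levels were spread broadly and the tags overlapped. Each cell was thinned to 5000 UMIs, which left 476 cells of tag 2 and 1415 of tag 4. The summed contractile list had a median of 29 UMIs per cell in tag 2 (10th to 90th percentile 14 to 67.5) and 21 in tag 4 (11 to 44). In tag 2 the acute phase list had a median of 7 (1 to 31), and in tag 4 a median of 15 (3 to 50). The non-muscle cytoskeleton had medians of 140 and 98. Acta2 was concentrated in few cells: its median was 0 UMIs in both tags, its 90th percentile was 7.5 in tag 2 and 2 in tag 4, and the 10% of cells with the most held 68.3% and 79.0% of its UMIs. Tmsb4x, in contrast, was found in nearly all cells, with medians of 57 and 31 UMIs.

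**Figure D5:**
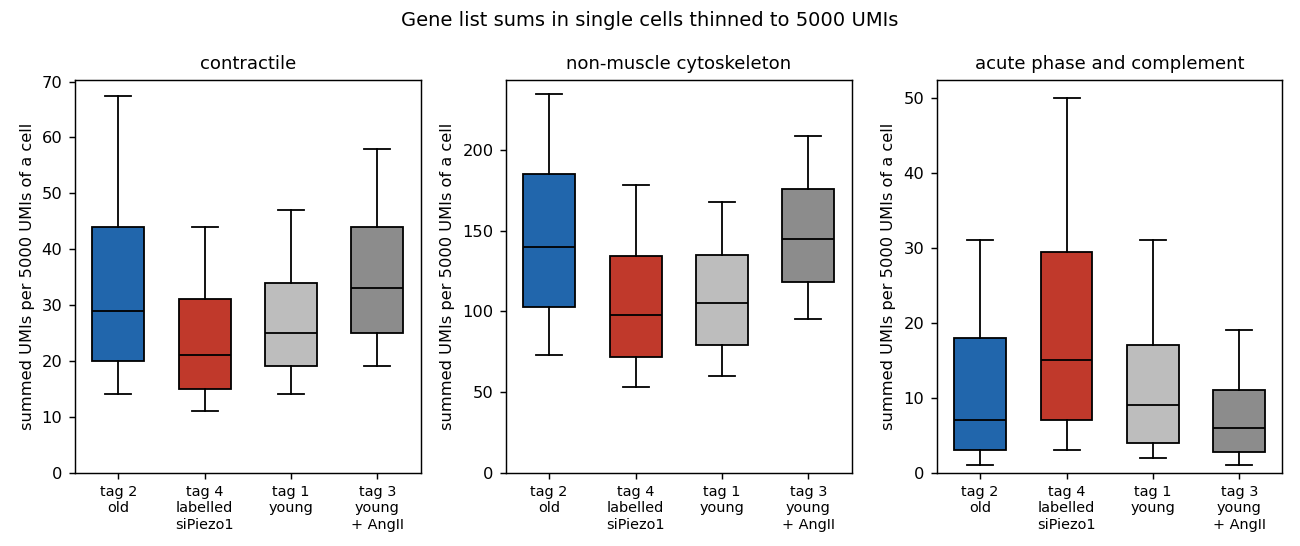
Boxes give the median and quartiles and whiskers the 10th and 90th percentiles of summed UMIs per 5000 UMIs of a cell, for 3 gene lists in the 4 tags. Tag 4 has the lowest medians for the contractile (21) and cytoskeletal (98) lists and the highest for the acute phase list (15), and the boxes overlap. By summed CPM over all cells, tag 1 and not tag 4 was the lowest for the cytoskeletal list (22455 and 22920).

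With cells divided at the pooled medians of the 2 lists, 23 contractile and 13 acute phase UMIs, 48.9% of the cells of tag 2 (44.4 to 53.5) were above the contractile median alone, against 25.4% of tag 4 (23.1 to 27.7). Cells above the acute phase median alone made up 16.8% of tag 2 (13.6 to 20.5) and 37.4% of tag 4 (34.9 to 40.0). Cells above both were 14.7% and 17.0%, and cells above neither 19.5% and 20.2%. These classes are ranges of 2 sums and not cell types. The 2 lists had already been seen to differ between the tags, so the classes describe that gap in single cells and add no support. Their intervals count cells of 1 culture a side and do not cover differences between cultures. Across cells, the 2 sums had a Spearman rho of -0.41 over the 476 cells of tag 2 and -0.35 over the 1415 of tag 4, and the cells of a tag share 1 library.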

How the data were processed

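One gene expression library and one hashtag library of mixed aortic VSMC cultures were analysed. The authors deposited UMI counts made with Cell Ranger 4, per the file headers, for 32285 genes and 4 hashtags in 2472397 barcodes, unfiltered; no source used here gives their genome build. Each side was 1 culture, so no test was made. From the deposited counts, CPM were summed per tag, with exact Poisson intervals for levels, exact binomial intervals for ratios and Clopper-Pearson intervals for shares (95%), in Python 3.11.15 with SciPy 1.17.1. Scrublet (scanpy 1.11.5, expected rate 0.1) marked 23.4% of all cells as doublets, and these stayed in unless stated. Free RNA was the sum of barcodes with 1 to 100 UMIs. Genes named are the 15 highest and 15 lowest of at least 50 CPM, genes the study names, and members of 30 lists past 1.5-fold or, failing that, the 2 most abundant; list members quoted beside these, the promoter motifs and the levels within Xist and Y-linked cells were picked after the values were seen. A gene of the 15 lowest is not reported here. The cells compared, the lists and the alternatives were chosen with earlier results of these data known. On simulated gene totals for tag 4 against tag 2 (8413 genes, 200 changed by a fold of 2), 95.4% of intervals held the true ratio. Those totals were drawn with counting error alone, the error the intervals assume. The share therefore does not speak for spread between cells or cultures.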

Additional observations from a re-analysis of the deposited data

How the results depend on the processing

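Many of the other choices kept fewer cells or changed the filter, and the part of this in the counts below was not tested. The counts of genes at least 1.5-fold higher and lower in tag 4 (130 and 70) moved most with the choices. They were 201 and 127 with cutoffs raised 1.5 times, 377 and 229 where a cell's tag was at least 3 times the next, 197 and 139 at a mitochondrial share of 1% to 15%, 216 and 144 in Xist cells, 471 and 482 in Y-linked cells, 275 and 195 in cells without a UMI of the dividing-cell genes, 239 and 149 after thinning, 40 and 21 at a mean of at least 50 CPM, and 1613 and 2194 with no filter; without doublets 187 were higher and 139 lower. The ratio of Piezo1 was 0.820 (0.650 to 1.04) in Y-linked cells and 0.863 (0.733 to 1.02) in cells without a UMI of the dividing-cell genes. Both intervals for counting error held 1 and the 0.969 over all cells, and a cause of these lower values was not tested. In Y-linked cells the contractile median was -0.82 and the acute phase median 1.26 on the log2 scale; over all choices these ran from -0.82 to -0.40 and from 0.72 to 1.26. Of the named genes past 1.5-fold over all cells, those on the other side of 1 in Y-linked cells were Klra4 0.715, Il1rl1 0.844, Lmo7 0.661, Mmp3 0.970, Gm32647 1.52 and Cxcl2 3.84; named genes nearer 1 also crossed it there, the furthest being Rgs5 (0.966 to 2.74) and Perp (0.740 to 2.07), and Ifit1 was at 0.988 under the highest centred log ratio, a choice added after the data had been seen, as were the cells with a dividing-cell UMI. No paired analysis was possible because each side was 1 culture. With 1 culture a side, no value here separates the label from the culture, and weak hashtags limit which cells are compared.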

Other observations

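Below 50 CPM the ratios ran further, and the genes here were chosen after their values were seen. C1qtnf7, a secreted protein of the C1q and TNF related family, was at 5.38 CPM in tag 2 and 27.1 CPM in tag 4 (ratio 5.04, interval 3.48 to 7.57), and at 3.77 and 1.61 CPM in tags 1 and 3. Cyp7b1, an oxysterol hydroxylase, was at 22.6 and 55.6 CPM. Ahr, the aryl hydrocarbon receptor, was at 8.43 and 20.9 CPM. Tag 4 had the highest level of the 4 tags for each of these 3 genes.

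On the lower side, Ptn, the growth factor pleiotrophin, was at 62.0 CPM in tag 2 and 19.1 CPM in tag 4 (ratio 0.307, 0.263 to 0.359), with 18.4 and 21.0 CPM in tags 1 and 3, so that tag 2 stood apart from the other 3. Olr1, a receptor of oxidized low-density lipoprotein, was at 30.3 and 8.44 CPM, and tag 3 was the highest at 63.3 CPM. Upk1b, a urothelial membrane protein listed as an epithelial marker and under the filter of 10 CPM, was at 13.8 CPM in tag 2 and 1.74 CPM in tag 4, and 1.61% and 1.18% of the cells had a UMI of it.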
